A study of Rattus norvegicus with 2 samples.

Results

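Glycolysis, gluconeogenesis, the glycerol phosphate shuttle and malic enzyme were examined in the duodenum of an immobilized rat and a control rat. The set was a list of 33 genes, and its members were all probe sets of the rat U34A array (an Affymetrix oligonucleotide array) annotated to them, 64 of 8799. A total of 30 genes had such a probe set, counting array controls and probe sets shared with other genes. Of these, 26 had a probe set of their own, against 4736 genes on the whole array. The immobilized animal was a male Wistar rat of 15 weeks kept in an immobilization cage for 2 weeks. The control animal was a male Wistar rat of the same age kept in a metabolic cage over those 2 weeks. Total RNA of the duodenal mucosa was hybridised to 1 array per animal, and whether RNA was pooled is not given in the sources used here. With 1 array per group there is no spread between animals, so no difference below has a replicate check or a p-value.

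Glycolysis splits glucose into pyruvate in the cytosol, and gluconeogenesis runs the same path backwards through its own enzymes at the irreversible steps. The glycerol phosphate shuttle couples a cytosolic and a mitochondrial glycerol-3-phosphate dehydrogenase, so that electrons of cytosolic NADH enter the respiratory chain. Many steps are served by isoenzymes from separate genes, each typical of certain tissues. The absorbing cells of the small intestine both burn and pass on sugar, take up fructose in quantity, and carry the enzymes of gluconeogenesis.

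Most of these genes differed little between the rats. The shuttle enzyme gene Gpd2 was 2.98-fold lower in the immobilized rat, the liver-type phosphofructokinase gene Pfkl was 2.37-fold higher, and the pyruvate carboxylase gene Pc was 1.86-fold lower at its brighter probe set and 1.17-fold lower at the other. Of 26 genes with a probe set of their own, 19 exceeded the signal floor on both arrays, 1 on the control array only and 6 on neither. Of all 4736 genes, 2524 exceeded it on both arrays, 303 on 1 array and 1909 on neither. The floor was the median of all signals, 39.9 units, after the immobilized array had been multiplied by 1.016. The brightest probe set on average stands for its gene. Among the 19 genes, 1 was at least 2-fold higher (2.02% of all 2524 genes above the floor) and 1 at least 2-fold lower (0.674% of all genes). A total of 16 of the 19 (84.2%) lay within 1.5-fold, against 86.8% of all genes. The 19 log2 ratios had a median of -0.07, against -0.01 over all genes, with 9 above 0 and 10 below (49.4% of all genes were above 0). The technical SD, from probe sets of the same gene, was 0.31 on the log2 scale (696 genes). It describes error within the arrays and not between animals.

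**Figure D1:**
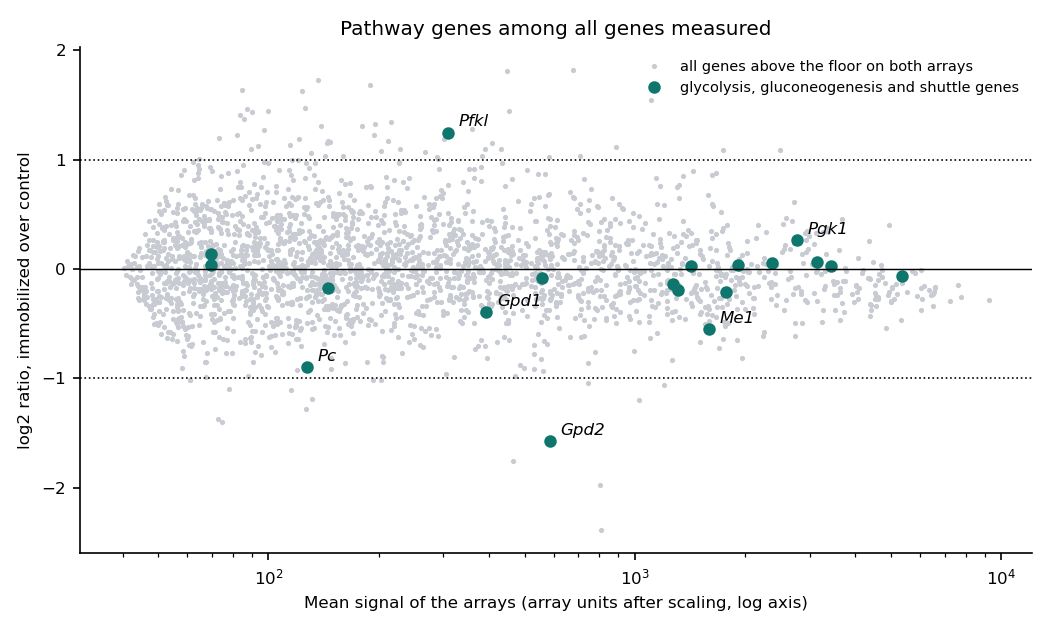
The log2 ratio of the immobilized over the control rat (vertical axis) is plotted against the mean signal of both arrays (horizontal, log axis) for the 2524 genes with a ratio (grey) and the 19 pathway genes (green). Dotted lines mark 2-fold. Only Pfkl (1.25) and Gpd2 (-1.58) among the pathway genes lie beyond them.

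The labels give duodenal epithelial cells as the source, and all 11 enterocyte markers on the array exceeded the floor in both rats. Markers of other cells were present too. All 13 exocrine pancreas markers were above the floor and higher in the immobilized rat, with summed signals of 13210 in the immobilized and 6899 in the control rat and a median log2 ratio of 0.86. Of the enterocyte markers 9 of 11 were lower, with sums of 53916 and 61934 units in the immobilized and control rat and a median of -0.28. Smooth muscle markers summed to 753 units in the immobilized and 457 units in the control rat, with 5 of 8 above the floor on both arrays, 3 higher and 2 lower. Acta2 alone made up most of the gap, at 289 units in the immobilized and 90.3 units in the control rat, and another of its probe sets had a ratio of -0.13. Skeletal muscle markers were below the floor on both arrays for 7 of 9, Ckm among them. The hybridisation spike-ins were lower on the immobilized array for 7 of 9 probe sets, with a median of -0.21. The part of cell composition or array handling in the ratios below was not tested. In mucosa RNA, fewer cells of a type and less RNA per cell cannot be told apart.

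Which isoenzyme genes were measured above the floor is the first question the list poses. Signals of different probe sets cannot be ranked against each other, since each binds with its own efficiency, so each gene is given only as above or not above the floor. Above it on both arrays were Hk1 and Hk2 (hexokinases), Pfkl, Pfkm and Pfkp (the liver, muscle and platelet phosphofructokinases), Aldoa (aldolase A), Pgam1 (the widely expressed phosphoglycerate mutase), Eno1 (the widely expressed enolase), Pkm and Pklr (the muscle and the liver and red cell pyruvate kinases), Fbp1 and Fbp2 (fructose bisphosphatases) and Gpd1 and Gpd2. Not above it on either array were Aldoc, the brain aldolase (signals from 1.32 to 29.4), Pgam2, the muscle mutase (6.91 in the immobilized and 9.10 in the control rat), Eno3, the muscle enolase (2.44 and 1.30 in the same order), Ldhb, the heart lactate dehydrogenase (6.60 to 31.2), Pfkfb2 (12.0 to 20.6) and Pfkfb3 (4.17 to 37.6). These genes therefore have no ratio. A signal under the floor does not show that a transcript is missing: a Pgk1 probe set read 5.69 units in the immobilized and 6.80 units in the control rat, while another Pgk1 probe set read 3024 and 2524 units in that order. No probe set was annotated to Hk3, Gpi or Eno2, and these were not analysed here.

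**Figure D2:**
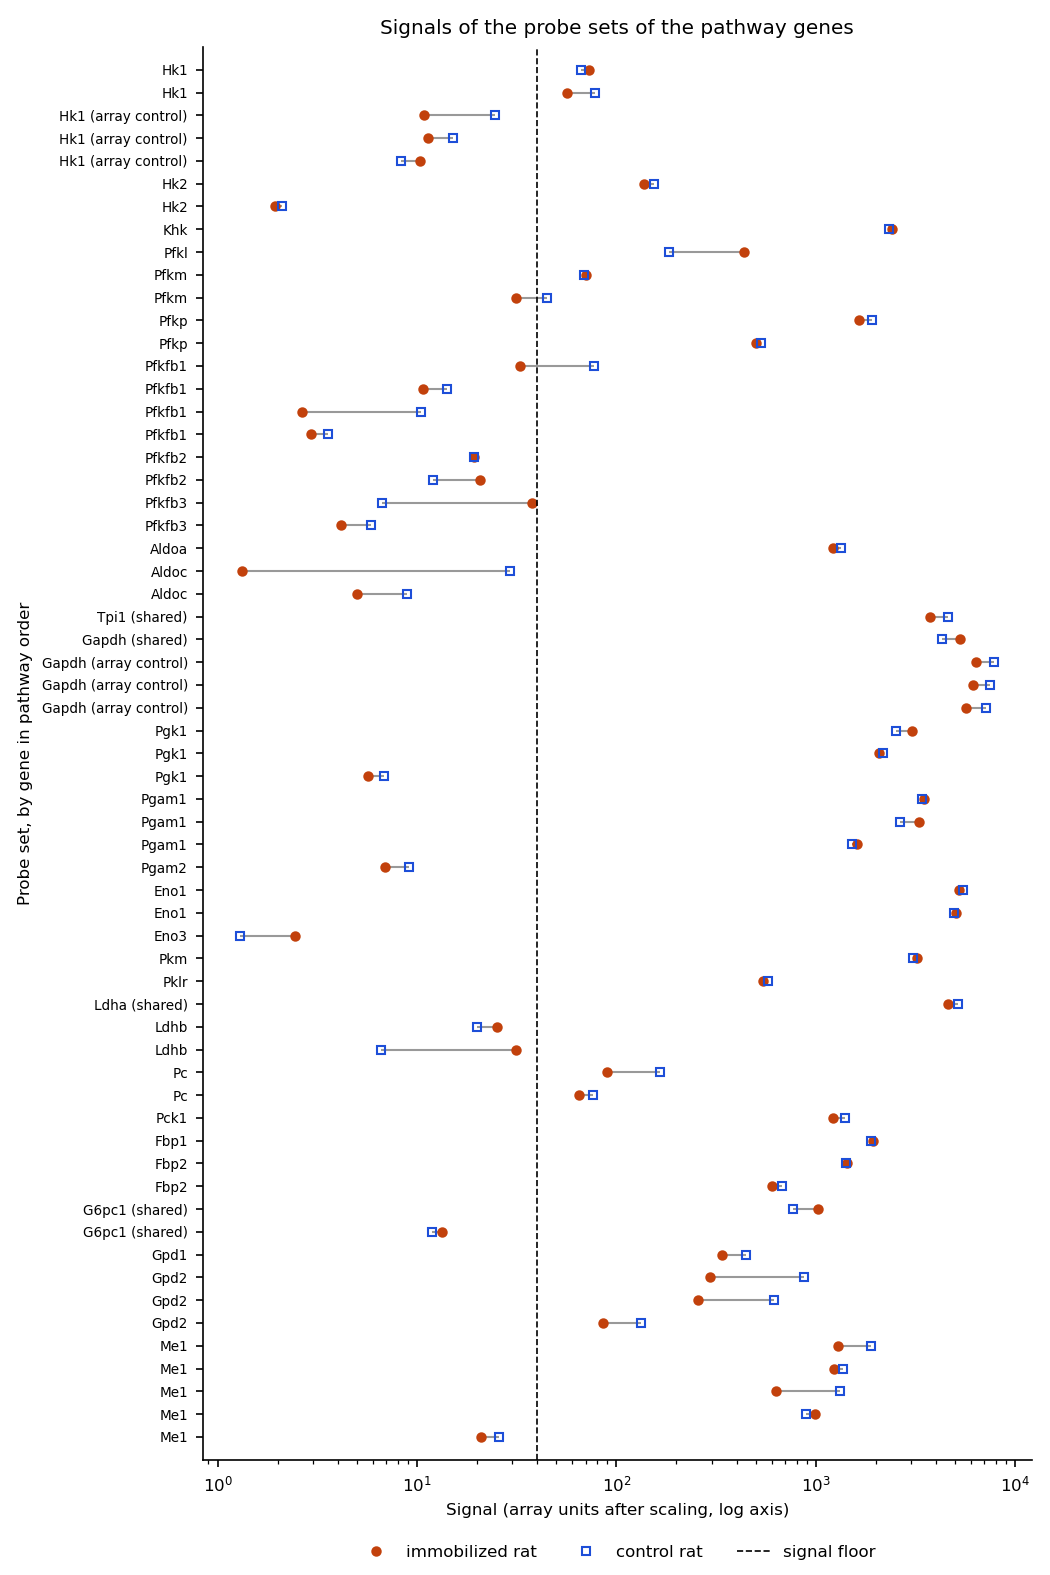
Signals of each probe set annotated to the pathway genes are shown for the immobilized (filled circles) and the control rat (open squares) on a log axis, in pathway order. The dashed line is the floor of 39.9 units. Probe sets shared with other genes and array controls are marked, the opposite-strand controls of Gapdh are left out, and the widest gaps above the floor are those of Gpd2, Pfkl and a Me1 probe set.

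Signals of the genes for hexose phosphorylation differed little at the probe sets that stand for them. Hk2, the insulin-responsive hexokinase of muscle and fat, read 137 units in the immobilized and 154 units in the control rat, a log2 ratio of -0.17, and its second probe set was below the floor on both arrays. Hk1, the hexokinase found in most tissues, read 73.2 units in the immobilized and 66.4 units in the control rat at its brighter probe set (0.14), but 56.4 and 78.1 units in that order at the other (-0.47), so its direction is not settled. The 3 array control probe sets for Hk1 were below the floor on both arrays, at 8.30 to 24.6 units. Khk, ketohexokinase, which commits fructose to the pathway, read 2416 units in the immobilized and 2327 units in the control rat (0.05). All of these lie within 1 technical SD of 0 except the second Hk1 probe set.

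The 3 phosphofructokinase genes, which encode the subunits of the main control point of glycolysis, did not share a direction. Pfkl read 435 units in the immobilized and 183 units in the control rat, a log2 ratio of 1.25 or 4.02 technical SDs. It was the 21st highest of the 2524 genes. Its ratio lay between 1.22 and 1.25 over the settings of scaling, and was 1.56 when the arrays were set equal on Gapdh. A single probe set carries this result, so the floor settings and the probe set choice could not change its value. Pfkp read 1646 units in the immobilized and 1904 units in the control rat (-0.21), with -0.10 at a second probe set. Pfkm read 70.4 and 68.8 units in the immobilized and control rat (0.03), and its second probe set, at 31.5 and 44.8 units in that order, exceeded the floor in the control rat only. The difference between the isoforms was not tested.

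The bifunctional enzymes that make and break fructose 2,6-bisphosphate, the activator of phosphofructokinase, were mostly under the floor. Pfkfb1, the liver and muscle form, read 32.7 units in the immobilized and 77.2 units in the control rat at its brightest probe set, at least 1.93-fold lower. Its other 3 probe sets were below the floor on both arrays. Pfkfb4, the testis form and a gene outside the list, was above it, with 219.7 units in the immobilized and 239.8 units in the control rat (-0.13).

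In the reversible steps from aldolase to enolase, genes with a probe set of their own and a ratio stayed close to 0. Aldoa read 1214 units in the immobilized and 1333 units in the control rat (-0.14). Pgk1, phosphoglycerate kinase, read 3024 units in the immobilized and 2524 units in the control rat (0.26), with -0.06 at a second probe set above the floor. For Pgam1 the 3 probe sets gave 0.03, 0.08 and 0.30, the first from 3469 and 3409 units in the immobilized and control rat. Eno1 read 5242 units in the immobilized and 5493 units in the control rat (-0.07), and its second probe set gave 0.03, so its sign is not settled. Thus no gene of this stretch with its own probe set reached 1 technical SD.

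Triose phosphate isomerase and glyceraldehyde phosphate dehydrogenase have no probe set of their own outside the array controls. The probe set annotated to Tpi1 and a pair of related loci read 3725 units in the immobilized and 4607 units in the control rat (-0.31). For Gapdh, often used as a reference gene, probe sets disagreed in direction. The 3 array controls read 6100, 5678 and 6383 units from the 5' to the 3' end in the immobilized rat, against 7493, 7163 and 7843 units in the control rat, with log2 ratios of -0.30, -0.34 and -0.30. A probe set shared by Gapdh and related loci read 5286 units in the immobilized and 4285 units in the control rat, a ratio of 0.30. The 3' over 5' signal ratio of the Gapdh controls was 1.05 on both arrays. Were the arrays set equal on the Gapdh controls, in an alternative chosen after seeing the data, the median over all genes would be 0.29 and that of the 19 pathway genes to 0.24. As this adds the same amount to every ratio, 15 of 19 pathway genes (78.9%) would lie above 0, like 81.7% of all genes. The split of all genes at 2-fold would become 131 higher and 8 lower, against 51 higher and 17 lower.

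At the end of the path, Pkm read 3212 units in the immobilized and 3077 units in the control rat (0.06), and Pklr read 542 units in the immobilized and 575 units in the control rat (-0.09). The probe set annotated to Ldha, the muscle-type lactate dehydrogenase, and a related locus read 4616 units in the immobilized and 5164 units in the control rat (-0.16). The ratios of Pkm, Pklr and the shared Ldha probe set thus lay within 1 technical SD of 0, while Ldhb was below the floor and had no ratio.

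**Figure D3:**
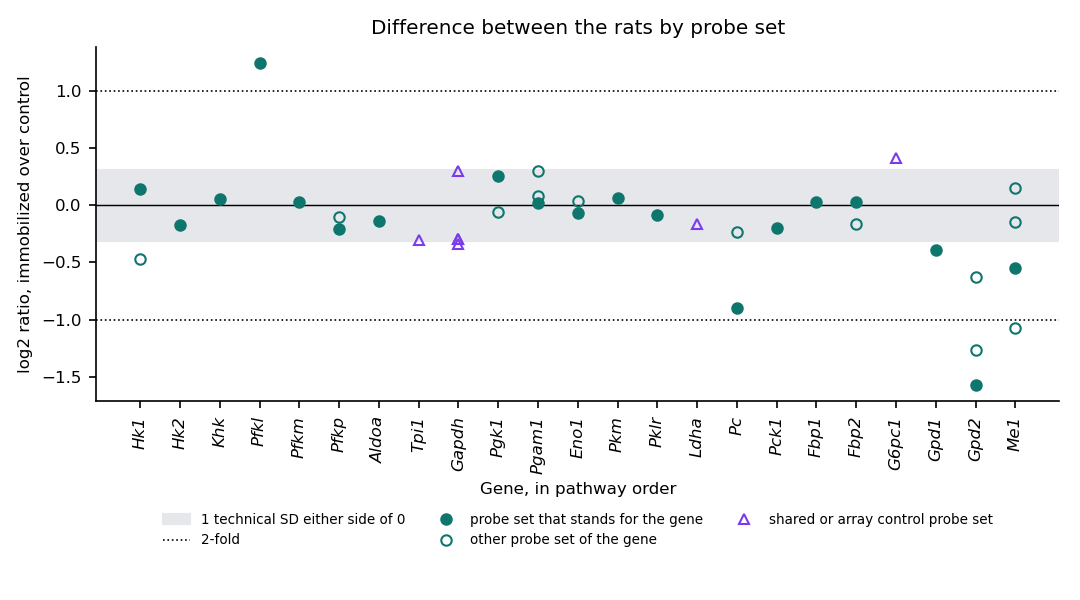
The log2 ratio of the immobilized over the control rat is plotted for each probe set above the floor on both arrays, by gene in pathway order. Filled circles stand for the gene, open circles are its other probe sets, and triangles are shared or array control probe sets. The grey band is 1 technical SD (0.31) and dotted lines mark 2-fold: the 3 Gpd2 probe sets all lie below 0, while those of Me1 spread from -1.08 to 0.15.

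Of the genes for the irreversible steps of gluconeogenesis, Pc lay farthest from 0, at its brighter probe set. Pc, mitochondrial pyruvate carboxylase, which makes oxaloacetate from pyruvate, read 89.2 units in the immobilized and 166 units in the control rat, 1.86-fold lower (-0.90), at its brighter probe set. The other, designed on the same sequence record, read 64.9 units in the immobilized and 76.3 units in the control rat (-0.23), so the size of the difference rests on 1 probe set. Pck1, cytosolic phosphoenolpyruvate carboxykinase, which converts oxaloacetate on, read 1224 units in the immobilized and 1401 units in the control rat (-0.19). Fbp1, the liver-type fructose bisphosphatase, read 1927 units in the immobilized and 1885 units in the control rat (0.03). Fbp2, the muscle-type form, read 1438 units in the immobilized and 1409 units in the control rat (0.03), with -0.16 at a second probe set. G6pc1, the catalytic subunit of glucose-6-phosphatase, shares its probe sets with Psme3 and Aoc3 in the annotation. The brighter read 1027 units in the immobilized and 771 units in the control rat (0.41), and it cannot be assigned to a single gene.

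The shuttle genes Gpd1 and Gpd2 and malic enzyme all had ratios below 0, as did 1278 of the 2524 genes. Gpd2, the mitochondrial glycerol-3-phosphate dehydrogenase that passes electrons to ubiquinone, read 294, 255 and 85.7 units in the immobilized rat at its 3 probe sets, against 877, 614 and 132 units in the control rat. The log2 ratios were -1.58, -1.27 and -0.63, so every probe set was lower, and their mean was -1.16 (SD 0.48 over probe sets). The first pair was designed on the same sequence record and is not independent. Gpd2 was the 4th lowest of the 2524 genes, at 5.08 technical SDs. Gpd1, the cytosolic partner that uses NADH, read 339.7 units in the immobilized and 447 units in the control rat, a log2 ratio of -0.40 or 1.28 technical SDs, from 1 probe set.

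Me1, the cytosolic malic enzyme, which yields NADPH and pyruvate, had 4 probe sets above the floor that disagreed. The brightest read 1293 units in the immobilized and 1893 units in the control rat, 1.46-fold lower (-0.55). A second read 627 units in the immobilized and 1323 units in the control rat, 2.11-fold lower (-1.08). The remaining pair, designed on the same sequence record, gave -0.15 and 0.15. The mean over the 4 was -0.41 (SD 0.53 over probe sets), and Me1 was the only pathway gene whose probe sets spanned more than 1 on the log2 scale. The median of Gpd1, Gpd2 and Me1 was -0.55, which is the value of the brightest Me1 probe set alone. In the same pair of arrays the enterocyte markers had their median of -0.28 and the pancreas markers theirs of 0.86, and the part of either in these ratios was not tested.

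In rat liver, Gpd2 and Me1 are both known as genes induced by thyroid hormone. The thyroid hormone receptor gene Thra read 344 units in the immobilized and 242 units in the control rat, with ratios of 0.51 and 0.52 at its probe sets, while Thrb was not above the floor. Any part of thyroid hormone in these ratios was not tested. The promoter windows of the pair of genes at 2-fold, and of Me1 as the other gene named with Gpd2, are shown. Pc and Gpd1 had no entry in the promoter table. Each holds 250 bases before and 50 bases after the RefSeq start (assembly GRCr8), 5' to 3' on the gene's strand. Capitals mark GGGCGG on either strand, the GC box bound by factors of the Sp family. The windows are chr3:62211403-62211702 on the plus strand for Gpd2, chr8:96540195-96540494 on the minus strand for Me1 and chr20:10663715-10664014 on the plus strand for Pfkl.
Gpd2: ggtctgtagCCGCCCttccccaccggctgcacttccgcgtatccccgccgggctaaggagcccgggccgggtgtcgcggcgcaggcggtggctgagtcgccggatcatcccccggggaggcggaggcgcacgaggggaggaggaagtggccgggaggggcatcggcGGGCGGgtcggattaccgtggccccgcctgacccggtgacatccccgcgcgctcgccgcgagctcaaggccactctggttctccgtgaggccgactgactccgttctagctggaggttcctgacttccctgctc
Me1: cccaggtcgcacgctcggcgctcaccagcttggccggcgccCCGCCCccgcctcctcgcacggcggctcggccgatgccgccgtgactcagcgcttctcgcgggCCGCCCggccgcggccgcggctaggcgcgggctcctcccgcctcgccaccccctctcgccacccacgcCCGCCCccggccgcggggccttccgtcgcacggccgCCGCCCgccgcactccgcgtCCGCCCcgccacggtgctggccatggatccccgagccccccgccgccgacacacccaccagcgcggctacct
Pfkl: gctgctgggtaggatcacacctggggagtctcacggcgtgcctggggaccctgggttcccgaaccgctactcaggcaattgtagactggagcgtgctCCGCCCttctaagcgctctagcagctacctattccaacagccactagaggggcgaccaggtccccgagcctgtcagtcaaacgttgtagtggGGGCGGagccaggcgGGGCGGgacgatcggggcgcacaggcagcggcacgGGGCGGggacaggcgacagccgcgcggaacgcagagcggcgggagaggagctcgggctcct
The GC box letters occurred 2 times in the Gpd2 window, 5 times in that of Me1 and 4 times in that of Pfkl. A link of these letters to the direction of the ratios was not tested. In all, 33.1% of 33469 RefSeq promoter windows of this length held them, as did 18 of the 29 listed genes with a window. The windows of the 3 genes had a GC content of 72.0%, 81.7% and 67.7%, against a median of 51.7% over all windows and 60.0% over the 33 windows of listed genes. The nuclear receptor half-site AGGTCA, the E-box CACGTG, the hypoxia element core ACGTG and TATAAA, each searched on both strands, were not found in these 3 windows. ACGTG, which is contained in CACGTG, was in the windows of 12 of the 29 listed genes, among them Aldoa, Eno1, Gapdh, Ldha and Pgam1 (19.3% of all windows). These are matches of letters and say nothing of binding.

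Genes of the neighbouring pathways gave a background of small differences. Of 111 genes in 8 lists, 67 had a probe set and 50 gave a ratio, 25 higher and 25 lower, with a median log2 ratio of 0.00. A single gene of the 50 passed 2-fold, while 2.02% of all 2524 genes were at least 2-fold higher and 0.674% at least 2-fold lower. This was Mpc1, a subunit of the carrier that brings pyruvate into mitochondria. It read 2373 units in the immobilized and 1114 units in the control rat (1.09) at 1 probe set.

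**Figure D4:**
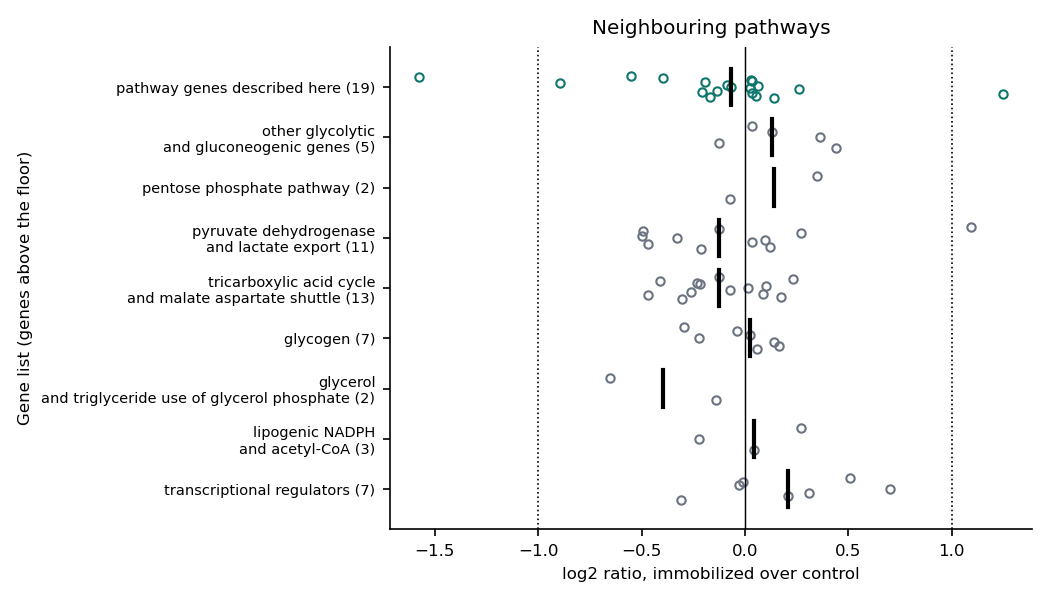
Log2 ratios of the immobilized over the control rat are shown for genes that exceeded the floor in both rats, by list, with the number of genes in brackets, circles for genes and a bar at each median. Dotted lines mark 2-fold, which is passed by Gpd2 and Pfkl in the top row and by Mpc1 at 1.09 in the pyruvate list.

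Pyruvate use and lactate export had 5 of 11 genes above 0 and a median of -0.12. Besides Mpc1, the farthest were Pdp2, a phosphatase that activates pyruvate dehydrogenase (-0.50, with -0.57 at a second probe set), and Slc16a3, a lactate exporter (-0.49). In the tricarboxylic acid cycle and the malate-aspartate shuttle, which moves the electrons of NADH by another route, 5 of 13 were above 0 and the median was -0.13. The farthest there were Idh1, the cytosolic isocitrate dehydrogenase (3052 units in the immobilized and 4221 units in the control rat, -0.47), Got1, the cytosolic aspartate aminotransferase (-0.41), and Cs, citrate synthase (-0.30). Mdh1 (-0.22) and Mdh2 (-0.23), the malate dehydrogenases of the malate-aspartate shuttle, were also below 0, and Got2, the mitochondrial aspartate aminotransferase, was above it (0.23). None of these reached 2-fold.

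Few genes that use glycerol or glycerol phosphate could be read. Aqp7, a glycerol channel, read 1479 units in the immobilized and 2326 units in the control rat (-0.65), and Dgat1, which completes triglycerides, was at -0.14. Gk, glycerol kinase, and Gpam, which starts glycerolipid synthesis, were below the floor on both arrays. Among lipogenic genes Slc25a1, the citrate carrier, was at 0.27, Fasn, fatty acid synthase, at -0.22 (0.75 at another probe set) and Acly, ATP citrate lyase, at 0.04. Acly and Slc25a1, which supply acetyl-CoA for the same synthesis as the NADPH of Me1, lay within 1 technical SD of 0. So did Fasn at its brighter probe set, and a link of these genes to Me1 was not tested.

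Other glycolytic and gluconeogenic genes were above 0 for 4 of 5 (median 0.13). Slc37a4, the transporter that feeds glucose-6-phosphatase, read 1177 units in the immobilized and 916 units in the control rat (0.36, and 0.40 at a second probe set). Gckr, the glucokinase regulator, was at 0.44 but close to the floor at 54.3 units in the immobilized and 40.0 units in the control rat, and Tkfc, which phosphorylates glyceraldehyde from fructose, was at 0.13. Of the pentose phosphate pathway, transketolase Tkt was at 0.35 and transaldolase Taldo1 at -0.07. Glycogen genes lay between -0.30 (Gsk3b) and 0.17 (Pygb), with Phkg1, a phosphorylase kinase subunit, at -0.22. Among transcriptional regulators (median 0.21 over 7), Cebpb was at 0.70, Thra at 0.51 and Arnt, the partner of the hypoxia factors, at -0.31. Hif1a itself read 37.7 units in the immobilized and 73.1 units in the control rat, and so exceeded the floor in the control rat only.

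The brightness of the pathway genes bears on how ratios near 0 are read. A total of 11 of the 19 had a mean signal above 1000 units, where the median log2 ratio over all 409 genes was -0.08 and that of the pathway genes 0.03. Among the pathway genes farthest from 0, Gpd2, Pfkl, Pc, Me1 and Gpd1, only Me1 was in this bright class. The log2 ratios of all 2524 genes had an SD of 0.41, wider than the technical SD of 0.31. A ratio beyond 1 technical SD therefore does not set a gene apart from the rest of the array.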

How the data were processed

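The authors deposited 1 signal intensity per probe set on a linear scale for each of 2 arrays. Per the series' design text, the manufacturer's software, version 4.0, filtered and normalized the signals, whereas the submitters' processing notes name MAS5, so the algorithm is not settled. Deposited signals averaged 300.6 on the immobilized and 312.0 on the control array, and their 2% trimmed means were 214.6 and 214.7 in that order. Detection calls were not used here.

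From these values, the immobilized array was scaled by 1.016 to a median log2 ratio of 0 over probe sets above the floor, the 50th percentile of signals. Array controls made up 59 of the 8799 probe sets. The annotation gave a single gene symbol to 7006 of the others (6985 of them brought up to date by gene ID), several to 308 and none to 1426. Gene values came from single-symbol probe sets that were not controls. Ratios required signals above the floor on both arrays. Members and lists were chosen with earlier results of these data known. All members were named, as were the 3 most distant from 0 in each other list. Mdh1, Mdh2, Got2, Gk, Gpam, Pfkfb4, Thrb, Hif1a, Acta2 and Dlst were named after their values were seen. The scale factor and the log2 ratios were checked on simulated data with known fold changes, while the counts were not. With 1 array per group no test was made. The number of arrays limits the precision. The software was statsmodels 0.14.6, numpy 2.4.6, matplotlib 3.10.9 and pandas 2.3.3 under Python 3.11.15.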

Additional observations from a re-analysis of the deposited data

How the results depend on the processing

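The 2 pathway genes at 2-fold, Pfkl and Gpd2, stayed there with the signals as deposited, equal trimmed means, quantile normalization, loess, a floor set at either the 30th or the 70th percentile and the mean over probe sets, while 0 pathway genes reached 3-fold. The mean over probe sets could not move Pfkl, which has a single probe set. With the floor at the 30th percentile, or at a 1.5-fold threshold, the count was 3. Over these settings Gpd2 ranged from -1.62 to -1.16 and Pc from -0.96 to -0.56, both smallest with probe sets averaged, and Me1 from -0.57 to -0.41. The sign changed in at least 1 setting for 4 of 19 genes (Eno1, Fbp2, Hk1 and Pfkm), all near 0. The pathway median ranged from -0.09 to 0.01 over 10 settings, and was 0.24 with the Gapdh controls set equal. The count of all genes at 2-fold, 68, was 177 and 31 with the floor at the 30th and 70th percentile and 139 with the Gapdh controls set equal, and 334 and 9 genes passed 1.5-fold and 3-fold. Counting control and shared probe sets (23 genes above the floor), each probe set on its own, or genes with any probe set at 2-fold (3 genes) were, like the Gapdh scaling, chosen after seeing the data. No paired analysis was possible because each group has 1 array. Signal over background limits Hk1, Pfkm, Pc and Pfkfb1 most.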

Other observations

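The array carries control probe sets for the opposite strand of Gapdh. The middle one read 66.3 units in the immobilized and 43.4 units in the control rat, over the floor in both rats, with a log2 ratio of 0.61. The 5' and 3' ones read 28.6 and 17.3 units in the immobilized rat, against 33.3 and 12.4 units in the control rat, and were below the floor.

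A total of 9 pathway genes had several probe sets with a ratio. In 5 of them (Hk1, Pgk1, Eno1, Fbp2 and Me1) probe sets had opposite signs, and 4 (Pfkp, Pgam1, Pc and Gpd2) had all of theirs on the same side of 0. The pairs of Pfkp and Pc, and a pair each of Pgam1 and Gpd2, were each designed on a single sequence record and are not independent. Only for Gpd2 did 2 probe sets pass 2-fold. Among the genes of neighbouring lists, Dlst, a subunit of the oxoglutarate dehydrogenase complex, read 1916 units in the immobilized and 2013 units in the control rat at its brightest probe set (-0.07), while another of its probe sets gave 0.88.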
